A study of Mus musculus with 6 samples.

Results

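*Ppy* and *Pyy*, the genes of pancreatic polypeptide and peptide YY, were followed in RNA from isolated mouse islets. They are 2 of the 41710 genes in the tables and were taken by their symbols, *Ppy* as ENSMUSG00000017316 and *Pyy* as ENSMUSG00000017311. The study asked how loss of the kinase activity of TRPM7, an ion channel joined to a kinase, affects islets under an obesogenic diet. Islets came from 3 WT mice and 3 Trpm7R/R mice, with 1 library per mouse. Trpm7R/R mice carry on both alleles, in every cell of the body, a lysine to arginine exchange that inactivates the kinase, so the genotype is not confined to islet cells. All mice were on the C57BL/6 background, had received a high-fat diet (HFD) with 45% of its energy from fat from 8 weeks of age for 16 weeks, and were about 24 weeks old. Islets of chow-fed mice were not analysed here. The mutation is a point exchange, so reads on *Trpm7*, 53 to 97 exon reads per library in WT and 35 to 85 in Trpm7R/R, cannot check the labels.

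Pancreatic polypeptide, peptide YY and neuropeptide Y form the PP-fold family of peptides. Pancreatic polypeptide is the hormone of the PP or gamma cell, a minor endocrine cell of the islet, and is released after meals under vagal control. Peptide YY is best known as a satiety hormone of the L cell of the lower gut, and in mouse islets it is made in PP cells and in some alpha and delta cells. Both act on Y receptors, where pancreatic polypeptide prefers Y4 and the trimmed form of peptide YY prefers Y2.

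*Ppy* and *Pyy* lie next to each other on chromosome 11, both on the minus strand. By the positions in the tables they are separated by 5356 bases, with 0 other genes between or over them, so their reads can be told apart from those of other genes. *Ppy* has 500 bases of exon and 890 of intron, and *Pyy* has 631 and 526. Since the genes are neighbours and moved together, the 250 bases before the RefSeq start of each are shown 5′ to 3′ on the gene's strand, with TATAA in capitals. They are chr11:102101320-102101569 for *Ppy* and chr11:102107833-102108082 for *Pyy* in GRCm38.p6. *Pyy* has a second listed start, and the more upstream of its starts was used.
Ppy: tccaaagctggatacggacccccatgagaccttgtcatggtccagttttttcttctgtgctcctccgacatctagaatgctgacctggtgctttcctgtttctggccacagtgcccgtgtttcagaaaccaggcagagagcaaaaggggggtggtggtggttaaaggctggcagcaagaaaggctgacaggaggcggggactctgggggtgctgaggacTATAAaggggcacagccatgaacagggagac
Pyy: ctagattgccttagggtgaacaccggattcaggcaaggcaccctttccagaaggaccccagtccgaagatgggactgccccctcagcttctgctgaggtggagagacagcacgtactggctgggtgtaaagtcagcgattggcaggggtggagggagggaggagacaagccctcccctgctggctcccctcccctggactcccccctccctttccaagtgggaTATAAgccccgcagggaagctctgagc

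TATAA, the core of a TATA box, occurred once on the sense strand of each promoter and not on the other strand. It began at position -31 from the start in *Ppy* and at -27 in *Pyy*. Of 32851 promoters in the RefSeq table, 16.0% held TATAA on the sense strand within the same 250 bases, and 3.52% held it wholly between 40 and 16 bases before the start. CANNTG, the E-box that basic helix-loop-helix factors read, occurred once in *Pyy*, at -36, and not in *Ppy*, against 66.2% of promoters. TAAT, the core of homeodomain sites, was found on neither strand of either promoter, against 54.9% of promoters on 1 strand or the other. These motifs do not overlap in the printed sequences, and their absence says only that these letters are not in this window. Compared position by position, without alignment, the promoters shared 24.4% of their bases, so this value does not show whether they are related.

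The libraries rested on 18226053 to 18825699 mapped reads in WT and 17213285 to 20307909 in Trpm7R/R, with 1312128 to 2135466 and 1491796 to 1792254 exon reads. Introns held 75.7% to 84.2% of the reads in genes in WT and 78.4% to 83.5% in Trpm7R/R, and 11 predicted genes with repeat-like read density held 50.6% to 69.3% and 58.2% to 67.0% of exon reads. Exon-exon reads, which cross a splice junction and so derive from spliced RNA, were counted over nuclear protein-coding genes outside the repeat-like ones. As a percentage of mapped reads they averaged 0.146 ± 0.0520 (SD, n = 3 mice) for WT libraries and 0.0442 ± 0.00926 (SD, n = 3) for Trpm7R/R. No Trpm7R/R library reached the lowest WT library (p = 0.1 by a 2-sided exact permutation test, which with 3 against 3 can go no lower). Reads in introns of Y-linked genes, as a ratio to the autosomal density, were 0.503 to 0.573 in WT and 0.414 in Trpm7R/R 4, but 0.0475 and 0.0335 in Trpm7R/R 6 and 8. The same ratio for X-linked genes was 0.671 to 0.771 in WT and 0.557 in Trpm7R/R 4, but 1.39 and 1.38 in Trpm7R/R 6 and 8. The study isolated islets from male and female mice, and the sources used here do not give the sex of each mouse. No WT library had such values, so sex and genotype cannot be told apart in Trpm7R/R 6 and 8. These differences accompany every comparison of the genotypes below, and their part in it was not tested except where a value is given.

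*Ppy* had 2741, 3304 and 2017 exon reads in WT 1, 2 and 3 and 659, 462 and 382 in Trpm7R/R 4, 6 and 8. *Pyy* had 1233, 1110 and 588 exon reads in WT and 215, 130 and 118 in Trpm7R/R. For both genes the lowest WT library, WT 3, stood clear of the highest Trpm7R/R library, Trpm7R/R 4, and the order of the Trpm7R/R libraries was the same. All of these reads were uniquely mapped. In bulk islet RNA, fewer cells that make a hormone and less RNA per cell cannot be told apart.

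**Figure D1:**
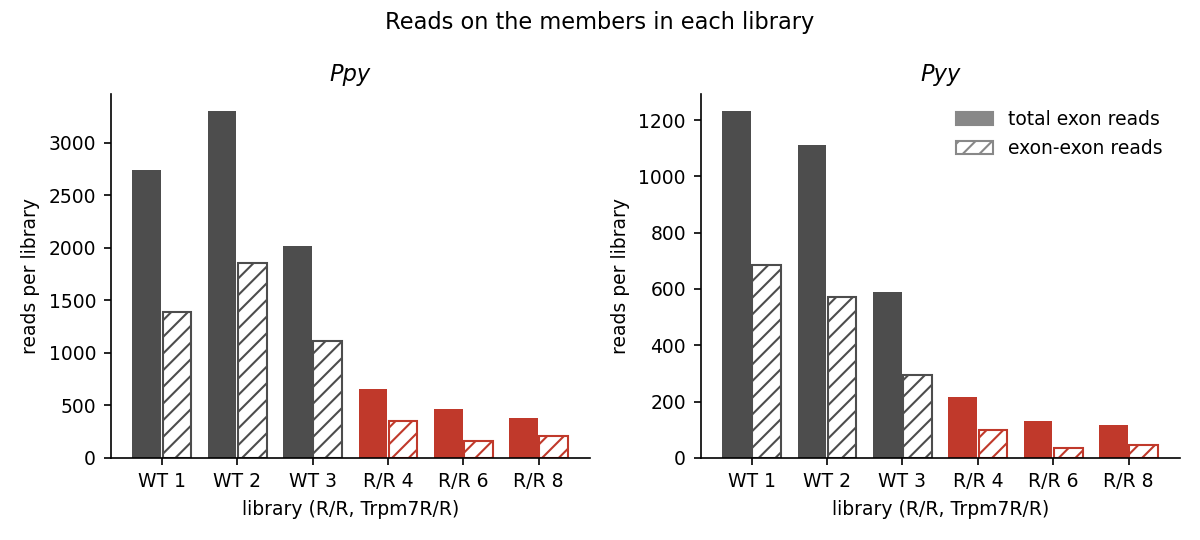
Total exon reads (filled bars) and exon-exon reads (hatched bars) of *Ppy* and *Pyy* in each WT library (grey) and each Trpm7R/R library (red), as counts per library on axes that start at 0. *Ppy* exon reads run from 2017 to 3304 in WT and from 382 to 659 in Trpm7R/R, and *Pyy* exon reads from 588 to 1233 and from 118 to 215.

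Set against all genes tested, both genes were lower in Trpm7R/R islets. The normalized count of *Ppy* averaged 2639 ± 569 (SD, n = 3 mice) across WT and 511 ± 144 (SD, n = 3) across Trpm7R/R libraries, a drop that edgeR's quasi-likelihood test put at a log2 fold change of -2.37 (standard error 0.32, Benjamini-Hochberg adjusted p = 0.0255 over 11674 genes). For *Pyy* the normalized counts were 960 ± 327 (SD, n = 3) and 157 ± 50.7 (SD, n = 3), with a log2 fold change of -2.61 (standard error 0.35, edgeR adjusted p = 0.0255). The members made up 2 of the 3 genes called lower (adjusted p no higher than 0.05, change 2-fold or more), which are 0.0257% of the genes tested, and the other, named here after its values were seen, was *Hsp90b1*, the gene of an ER chaperone. Every Trpm7R/R library was below every WT library for both members, as for 6.84% of the genes tested, while the reverse held for 3.64% of them. These p-values measure the spread between single libraries of separate mice. The calls of both members were lost without WT 1, WT 2, Trpm7R/R 6 or Trpm7R/R 8, where edgeR's adjusted p was 0.225 to 0.353 and the log2 fold changes were between -2.57 and -2.11, and they held without WT 3 or Trpm7R/R 4. With Y-linked read density as a term in the model, the log2 fold changes were -1.89 for *Ppy* and -1.94 for *Pyy* (edgeR adjusted p = 0.236 for both), and without Trpm7R/R 6 and 8 they were -2.07 and -2.22 (edgeR adjusted p = 0.0895 and 0.0588).

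The size of the fall depended on what the reads were set against. TMM scaling (trimmed mean of M-values), used above, centres the libraries on the bulk of the genes tested, whose log2 fold changes had a median of 0.01. When libraries were scaled to 84 cytosolic ribosomal protein genes, the log2 fold change was -0.98 for *Ppy* (edgeR adjusted p = 0.0714) and -1.23 for *Pyy* (edgeR adjusted p = 0.0300). The intronic density, the typical density of reads in introns of a library, served as background. When libraries were scaled to 64 genes with exons well above it, at 5 times or more and hormone genes left out, it was -1.08 for *Ppy* (edgeR adjusted p = 0.0528) and -1.32 for *Pyy* (edgeR adjusted p = 0.0248). These scalings moved the median of all genes to 1.34 and 1.26. A scaling moves all genes by about the same amount. The distance of the members from that median was therefore fixed in advance and tests nothing. With hormone genes kept, 71 genes stood well above the intronic density, against 11674 tested, so TMM rested mostly on other genes. As a percentage of mapped reads, exon reads of these 71 genes averaged 0.271 ± 0.106 (SD, n = 3) in WT. In Trpm7R/R they averaged 0.0704 ± 0.0207 (SD, n = 3), without overlap. The members and the other hormone genes held most of these reads. Without hormone genes, 8533, 12481 and 6372 exon reads were left in WT and 4259, 2775 and 3576 in Trpm7R/R. The 71 genes were chosen by means over all libraries, so genes high in WT alone could enter, and these values are only a description. In a fit of these 71 genes alone, *Ppy* was at -0.75 (edgeR adjusted p = 0.534) and *Pyy* at -0.99 (edgeR adjusted p = 0.216), and neither was called. In the same fit *Ins2* was at -0.52, *Gcg* at -0.35, *Ins1* at -0.23, *Iapp* at -0.19 and *Sst* at -0.11.

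**Figure D2:**
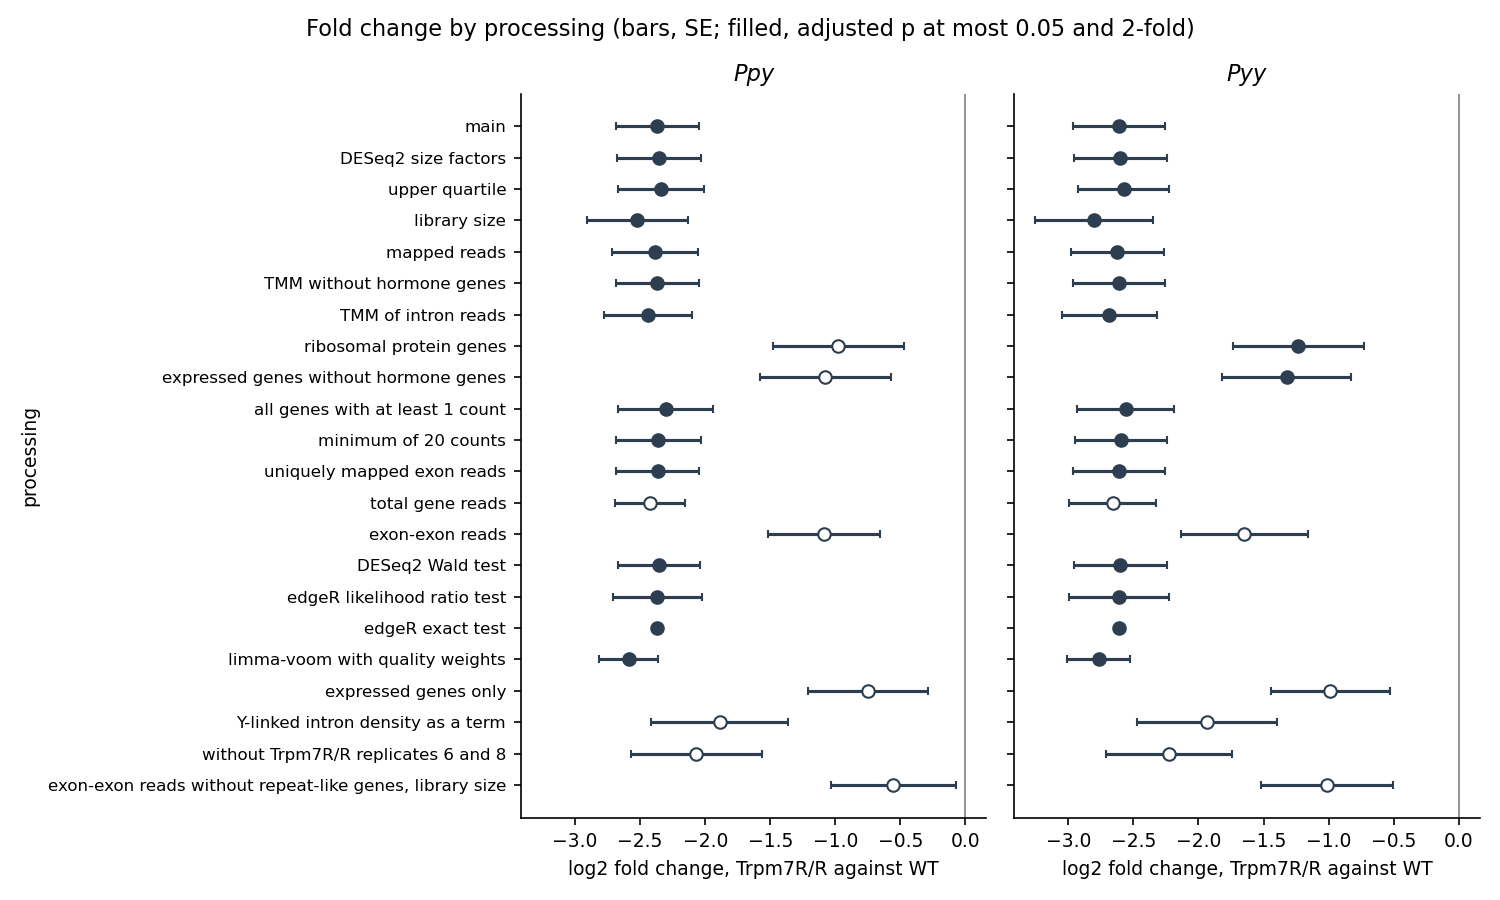
Log2 fold change of *Ppy* and *Pyy* in Trpm7R/R against WT, with its standard error as bars, for each way of processing the same 6 libraries or 4 of them (rows). Filled points passed both thresholds (adjusted p no higher than 0.05, change 2-fold or more), the edgeR exact test gives no standard error, and every point lies below 0, from -2.59 to -0.55 for *Ppy* and from -2.80 to -0.99 for *Pyy*.

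Spliced reads gave the same direction. *Ppy* had 1392, 1852 and 1113 exon-exon reads in WT and 351, 165 and 207 in Trpm7R/R, or 78.6 ± 21.1 (SD, n = 3) and 13.3 ± 6.14 (SD, n = 3) per 1000000 mapped reads (RPM). *Pyy* had 684, 571 and 295 exon-exon reads in WT and 100, 35 and 44 in Trpm7R/R, or 27.9 ± 10.6 RPM (SD, n = 3) and 3.32 ± 2.16 RPM (SD, n = 3). The groups did not overlap for either gene (2-sided exact permutation test, p = 0.1 for both). When edgeR was fitted to exon-exon reads of the 181 genes with enough of them, the log2 fold change was -1.08 for *Ppy* (adjusted p = 0.146) and -1.65 for *Pyy* (adjusted p = 0.120), and neither passed.

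As a share of all spliced reads in a library, both members were lower in every Trpm7R/R library than in every WT library. This share needs no scaling between libraries but depends on the other genes in the total. How many of all genes separated in this way was not counted. Within exon-exon reads of the genes well above the intronic density, the groups overlapped for both members. *Ppy* held 4.74%, 5.28% and 6.70% of spliced reads in WT 1, 2 and 3 and 4.10%, 2.79% and 2.06% in Trpm7R/R 4, 6 and 8 (2-sided exact permutation test, p = 0.1). The nearest libraries were WT 1, with a Clopper-Pearson 95% interval of 4.50% to 4.99%, and Trpm7R/R 4, with 3.69% to 4.54%, and these intervals overlap. *Pyy* held 2.33%, 1.63% and 1.78% in WT and 1.17%, 0.593% and 0.439% in Trpm7R/R (2-sided exact permutation test, p = 0.1). Its nearest libraries, WT 2 with 1.50% to 1.76% and Trpm7R/R 4 with 0.952% to 1.42%, had intervals that do not meet. These intervals cover counting error only, since reads after amplification are not independent molecules.

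The share of a gene's exon reads that cross a junction was lowest in Trpm7R/R 6 for both members. For *Ppy* it was 50.8%, 56.1% and 55.2% in WT and 53.3%, 35.7% and 54.2% in Trpm7R/R, with the groups overlapping (2-sided exact permutation test, p = 0.5). For *Pyy* it was 55.5%, 51.4% and 50.2% in WT and 46.5%, 26.9% and 37.3% in Trpm7R/R, so that the groups did not overlap (2-sided exact permutation test, p = 0.1). Whether the members differed in this was not tested. The same share was also lower in every Trpm7R/R library for *Ins2*, at 31.3% to 35.5% in WT and 22.2% to 28.5% in Trpm7R/R. Over the 64 expressed genes other than hormone genes it was 34.3% to 43.5% in WT and 26.5% to 31.7% in Trpm7R/R, again without overlap. These genes were chosen by means over all 6 libraries, exon-exon reads included, so genes high in WT alone could enter. Their values are therefore only a description of this share. For *Ins1*, *Iapp*, *Gcg* and *Sst* the groups overlapped in this share.

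Intron reads of the members were few. *Ppy* had 7, 12 and 8 intron reads in WT and 5, 2 and 1 in Trpm7R/R, which is 2.30 ± 0.720 (SD, n = 3) and 0.673 ± 0.485 (SD, n = 3) times the intronic density of its library. *Pyy* had 0, 5 and 2 intron reads in WT and 3, 2 and 0 in Trpm7R/R, and a count of 0 allows up to 3 reads. The exons, in contrast, stood at 1217 times the intronic density in WT and 227 times in Trpm7R/R for *Ppy*, and at 349 and 55.1 times for *Pyy*. A difference in intron reads of *Pyy* was not detectable at this depth (2-sided exact permutation test, p = 1), and for *Ppy* the groups did not overlap (2-sided exact permutation test, p = 0.1). With counts this low and near the intronic density, a difference in unspliced RNA was shown for neither gene.

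**Figure D3:**
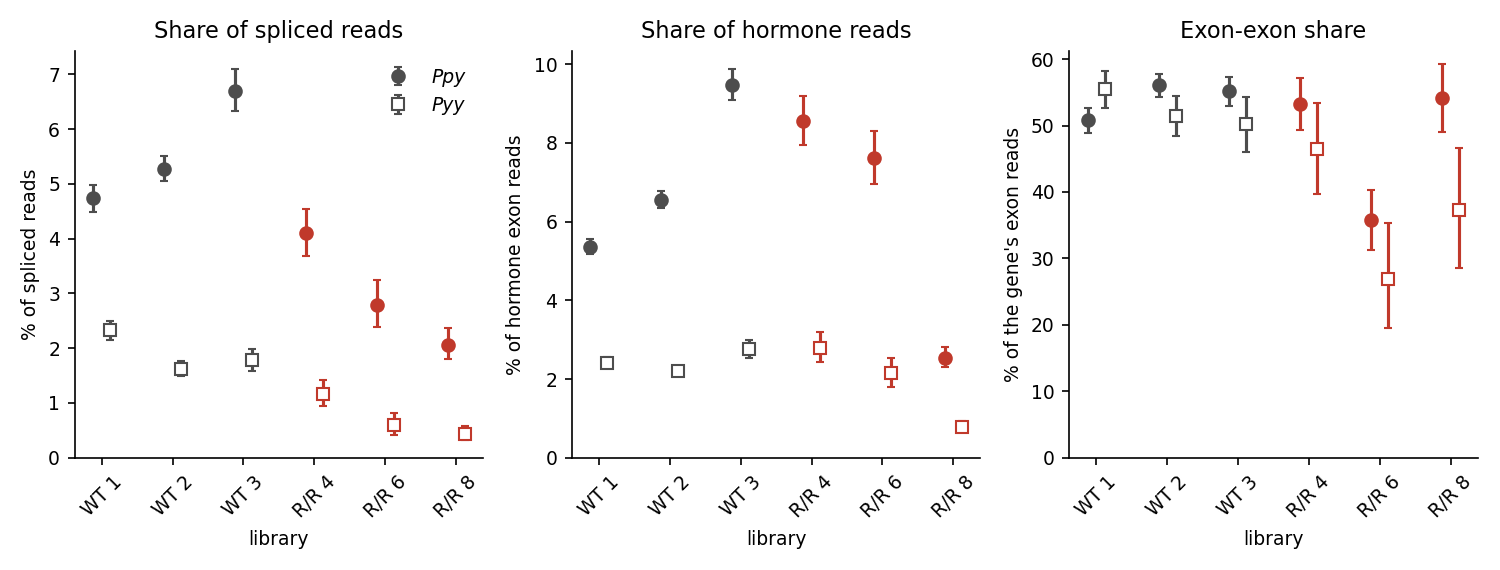
Percentages of *Ppy* (filled circles) and *Pyy* (open squares) in each WT library (grey) and Trpm7R/R library (red, R/R), with Clopper-Pearson 95% intervals: share of all spliced reads, share of the exon reads of 9 islet hormone genes, and share of the gene's own exon reads that cross a junction. The groups separate for both genes in the share of spliced reads, overlap in the share of hormone reads, and in the junction share overlap for *Ppy* and separate for *Pyy*.

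Per length, *Ppy* was among the most abundant messenger RNAs of these islets. It had 291, 363 and 219 RPKM in WT and 76.6, 52.4 and 37.6 in Trpm7R/R, group means of 290.8 ± 72.0 (SD, n = 3) against 55.5 ± 19.7 (SD, n = 3). Among nuclear protein-coding genes outside the repeat-like ones it ranked 2, 3 and 2 in WT and 3, 3 and 5 in Trpm7R/R. *Pyy* had 104, 96.5 and 50.5 RPKM in WT and 19.8, 11.7 and 9.21 in Trpm7R/R, a mean of 83.6 ± 28.9 (SD, n = 3) against 13.6 ± 5.54 (SD, n = 3), and ranked 6 in every WT library and 7, 7 and 6 in Trpm7R/R. The group means of RPKM differed 5.24-fold for *Ppy* and 6.16-fold for *Pyy*, and the groups overlapped for neither (2-sided exact permutation test on log2 RPKM, p = 0.1 for both). On the TPM scale, whose sum takes in the repeat-like genes, *Ppy* was at 3650 ± 1675 (SD, n = 3) against 590 ± 93.7 (SD, n = 3) and *Pyy* at 1090 ± 633 (SD, n = 3) against 144 ± 32.0 (SD, n = 3).

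By mean RPKM in WT the islet hormone genes ran in the order *Ins2*, *Ins1*, *Ppy*, *Gcg*, *Iapp*, *Pyy* and *Sst*. Not every neighbour in that order was separated. *Ins1* was above *Ppy* in 1 of 3 WT libraries and in 3 of 3 Trpm7R/R libraries, while *Ppy* was above *Gcg*, the glucagon gene, in 3 of 3 WT and 2 of 3 Trpm7R/R libraries. *Iapp*, the gene of islet amyloid polypeptide, was above *Pyy* in every library, and *Pyy* was above *Sst*, the somatostatin gene, in every library. *Npy*, the third gene of the family, had 12 exon reads and 4 exon-exon reads over the 6 libraries, and *Ghrl*, the ghrelin gene, had 15 and 0.

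**Figure D4:**
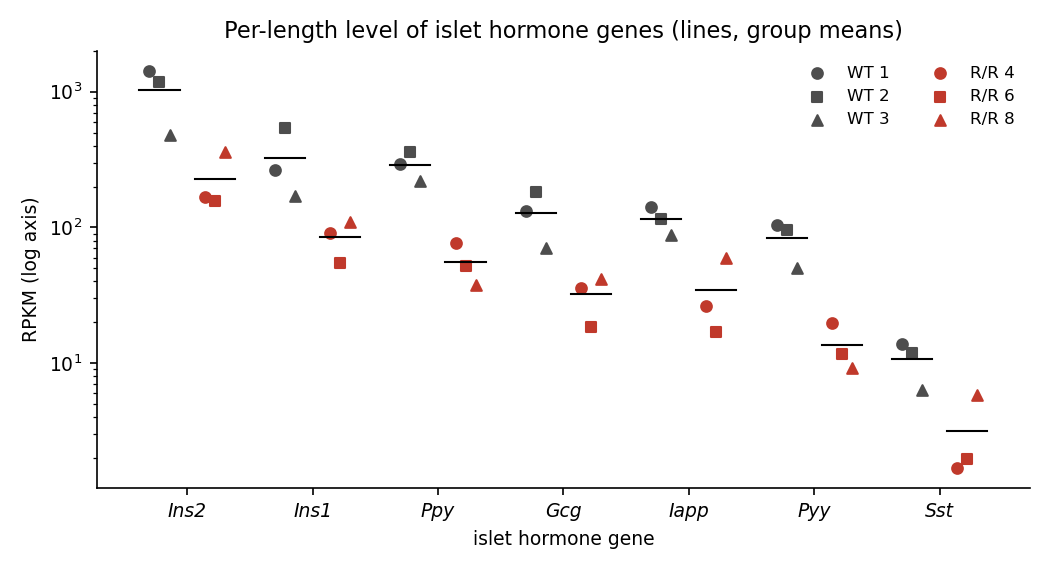
RPKM (log axis) of 7 islet hormone genes in each WT library (grey) and each Trpm7R/R library (red, R/R), with a line at each group mean. *Ppy* lies at 219 to 363 in WT and 37.6 to 76.6 in Trpm7R/R, *Pyy* at 50.5 to 104 and 9.21 to 19.8, and in Trpm7R/R 8 both are lowest of their group while the other 5 genes are highest.

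The ratio of *Ppy* to *Pyy* varied between libraries, and a difference between the groups was not shown. There were 2.22, 2.98 and 3.43 *Ppy* exon reads per *Pyy* exon read in WT and 3.07, 3.55 and 3.24 in Trpm7R/R. The log2 ratio differed by 0.21 between the groups, which overlapped (2-sided exact permutation test, p = 0.4). In exon-exon reads the log2 ratio averaged 1.55 ± 0.46 (SD, n = 3) over WT and 2.09 ± 0.24 (SD, n = 3) over Trpm7R/R libraries, a difference of 0.55 with overlapping groups (2-sided exact permutation test, p = 0.2). Across the 6 libraries the log2 CPM (exon reads per 1000000 after TMM scaling) of the members had a Pearson r of 0.990, a description over points that share the difference between the genotypes and the scaling of each library.

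Set against the other islet hormones, the members did not pass as lower in Trpm7R/R. Together they made up 7.77%, 8.75% and 12.2% of the exon reads of 9 hormone genes in WT and 11.3%, 9.75% and 3.33% in Trpm7R/R (2-sided exact permutation test, p = 0.8). The groups overlapped, with Trpm7R/R 8 far below the rest. The ratios of each member to *Ins2*, *Iapp*, *Gcg* and *Sst* gave 8 comparisons. The difference in mean log2 ratio, Trpm7R/R less WT, was between -0.28, for *Ppy* to *Ins2*, and -0.72, for *Pyy* to *Sst* and to *Iapp*, and all 8 had overlapping groups (2-sided exact permutation tests, p = 0.3 to 0.9, Benjamini-Hochberg adjusted p = 0.9 for each). A fall of the members different from that of the other hormones was therefore not shown, and was not excluded by values that spread this widely.

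Trpm7R/R 8 set these ratios. The log2 ratio of *Ppy* to *Ins2* was -3.69, -3.10 and -2.54 in WT, -2.52 and -2.98 in Trpm7R/R 4 and 6, and -4.66 in Trpm7R/R 8. The log2 ratio of *Pyy* to *Iapp* was -1.09, -0.88 and -1.43 in WT, -1.05 and -1.18 in Trpm7R/R 4 and 6, and -3.32 in Trpm7R/R 8. In that library *Ppy* and *Pyy* were the lowest of all 6, with 382 and 118 exon reads, while *Ins2* with 9630, *Ins1* with 2367, *Gcg* with 1270, *Iapp* with 1177 and *Sst* with 86 were the highest of the 3 Trpm7R/R libraries. Without Trpm7R/R 8 the difference in the *Ppy* to *Ins2* log2 ratio was 0.36, that in the *Pyy* to *Iapp* log2 ratio was 0.02, and the members' share of hormone reads was 0.958 percentage points higher in Trpm7R/R than in WT. Of the 8 ratios, only *Pyy* to *Gcg* kept a difference below 0 without it, at -0.17.

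**Figure D5:**
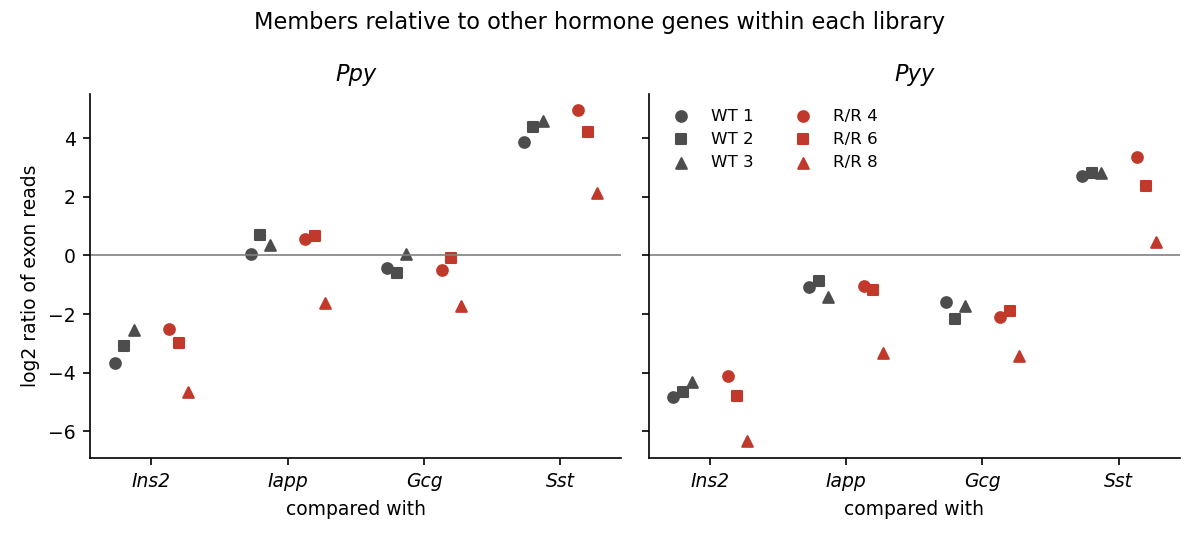
Log2 ratio of *Ppy* and of *Pyy* exon reads to those of *Ins2*, *Iapp*, *Gcg* and *Sst* in each WT library (grey) and each Trpm7R/R library (red, R/R). Trpm7R/R 8 is the lowest point in all 8 columns, at -4.66 for *Ppy* to *Ins2*. In Trpm7R/R 4 the ratios to *Sst*, at 4.97 for *Ppy* and 3.36 for *Pyy*, lie above every WT library. So do its ratios to *Ins2*, at -2.52 for *Ppy* and -4.13 for *Pyy*.

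Among genes that stood well above the intronic density, *Ppy* held 4.59%, 5.25% and 7.29% of exon reads in WT and 5.51%, 5.22% and 2.05% in Trpm7R/R (2-sided exact permutation test, p = 0.5). *Pyy* held 2.07%, 1.76% and 2.13% in WT and 1.80%, 1.47% and 0.634% in Trpm7R/R (2-sided exact permutation test, p = 0.2). In both cases Trpm7R/R 4 lay within the WT range and Trpm7R/R 8 lay lowest. In exon-exon reads of the same genes the groups overlapped as well, with *Ppy* at 7.62%, 9.61% and 13.8% in WT and 11.9%, 8.47% and 4.52% in Trpm7R/R (2-sided exact permutation test, p = 0.5), and *Pyy* at 2.96% to 3.75% and 0.960% to 3.38% (2-sided exact permutation test, p = 0.2). The separation seen in the share of all spliced reads thus depended on which genes made up the total.

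The other hormone genes were described in the same fit. Of 7 listed, 5 could be tested and edgeR's quasi-likelihood test called 0, but all 5 had an unadjusted p under 0.05, against 4.57% of all genes lower and 1.14% higher at that level. In normalized counts every Trpm7R/R library was below every WT library for all 5, as for 6.84% of all genes tested. Their log2 fold changes were -2.13 for *Ins2*, -1.97 for *Gcg*, -1.89 for *Ins1*, -1.70 for *Iapp* and -1.68 for *Sst*, a median of -1.89 against 0.01 for all genes tested. The Wald test of DESeq2 called 4 of them lower, *Sst* being the exception, and edgeR's likelihood ratio test called 5.

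The receptors on which the members act gave almost no signal. *Npy2r*, the Y2 receptor, had 11 to 15 exon reads per library in WT and 11 to 19 in Trpm7R/R, and *Npy4r*, the Y4 receptor, had 4 to 15 and 5 to 16. Their log2 fold changes were 0.19 and 0.32, and both lay under the intronic density. *Npy1r* with 47 exon reads in all, *Npy5r* with 52 and *Npy6r* with 16 were too low to test. The 5 receptor genes had 0 exon-exon reads over the 6 libraries, so their expression was not detectable at this depth. Of this list 2 genes other than the members were tested and 0 were called by edgeR or DESeq2, with 0 at an unadjusted p under 0.05.

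Genes that mature or trim these hormones were measured at low counts. Of 10, all were tested and 0 were called by edgeR's quasi-likelihood test, 4 were lower at an unadjusted p under 0.05 (4.57% of all genes), 5 had every Trpm7R/R library below every WT library (6.84% of all genes), and the median log2 fold change was -0.69 against 0.01 for all genes. *Pcsk2*, a prohormone convertase of islet endocrine cells, had 131 to 374 exon reads in WT and 54 to 139 in Trpm7R/R, with a log2 fold change of -1.53 (edgeR adjusted p = 0.181). *Cpe*, the carboxypeptidase that trims the basic residues left by the convertases, had 149 to 303 and 48 to 99, with a log2 fold change of -1.61 (edgeR adjusted p = 0.0958). The Wald test of DESeq2 called these 2 genes lower. *Pcsk1*, the other convertase, was at -0.50 and *Mme*, neprilysin, which degrades peptides, at 0.18. *Pam*, which amidates the C-terminal end that both hormones need for activity, was at -0.50, and *Dpp4*, which removes the N-terminal dipeptide of peptide YY, was at 0.31. The groups overlapped for both in normalized counts, while the exon reads of *Pam*, 67 to 115 in WT and 49 to 63 in Trpm7R/R, did not overlap.

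Other genes reported as markers of PP cells had few reads. Of 8 listed, 6 were tested, 0 were called by edgeR or DESeq2, 0 had an unadjusted p under 0.05, and the median log2 fold change was -0.13. *Etv1* was at -0.44, *Slitrk6* at 0.27, *Meis2* at -0.23 and *Sertm1* at 0.02, and the densest of the 8, *Slitrk6*, had 2.77 times the intronic density in exons. *Etv1* had 25 of the list's 29 exon-exon reads. The summed exon reads of 5 PP cell markers other than the members were 4.25 to 6.77 RPM in WT and 5.33 to 6.27 in Trpm7R/R. Of the PP cell markers, *Ppy* and *Pyy* alone were denser than 5 times the intronic density. Summed markers of beta cells, with *Ins1*, *Ins2* and *Iapp* among them, were 912.1 to 2319 RPM in WT and 286.1 to 657.0 in Trpm7R/R. Those of alpha cells, with *Gcg* among them, were 114 to 289 and 31.1 to 66.4. The beta and alpha cell sums keep their hormone genes and the PP cell sum does not, so they are not comparable.

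Genes listed as markers of the gut L cell, the other main source of peptide YY, had few reads in these libraries and reached at most 2.55 times the intronic density. Over 5 genes their summed exon reads were 0.596 to 0.956 RPM in WT and 1.02 to 1.53 in Trpm7R/R, higher in every Trpm7R/R library at these low levels. The list also holds *Gip*, the hormone gene of the K cell of the upper gut, which had 0 reads. Acinar markers, 8 genes of the exocrine tissue around the islets, summed to 9.53 to 13.4 and 8.91 to 10.6 RPM, with overlapping groups.

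Of 19 islet transcription factors, 8 were tested and 0 were called by edgeR's quasi-likelihood test, while 5 were lower at an unadjusted p under 0.05 (4.57% of all genes), 4 had every Trpm7R/R library below every WT library (6.84% of all genes), and the median log2 fold change was -1.16 against 0.01. *Mafa*, a factor of mature beta cells, was at -2.35 (edgeR adjusted p = 0.0516), and DESeq2 called it and no other of the 8. *Pax6*, which all islet endocrine cells use, was at -1.25, *Isl1* at -0.41 and *Rfx6*, which most islet endocrine cell types need to form, at -0.29.

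The genes around the pair on chromosome 11 did not share its level. The 20 nearest protein-coding genes, 10 on each side, had at most 46 exon reads in any library and at most 1.75 times the intronic density. Of these, 4 were tested, 0 were called by edgeR or DESeq2, 0 had an unadjusted p under 0.05, and the median log2 fold change was -0.49. The nearest tested gene on the side of *Ppy* was *Mpp2*, a scaffold protein gene 11414 bases away, at -0.24, and on the side of *Pyy* it was *G6pc3*, a glucose-6-phosphatase gene 81787 bases away, at -0.63.

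By Pearson correlation over the 6 libraries with the mean log2 CPM of *Ppy* and *Pyy*, the genes most alike were *Trim12c* (r = 0.995), *Nenf* (0.994), *Tle5* (0.991), *Atp5c1* (0.990) and *Cox5b* (0.988). They had far fewer reads, with *Trim12c* at 19 to 21 exon reads in WT and 13 to 16 in Trpm7R/R and *Tle5* at 16 to 33 and 2 to 4. In the same order, their exons stood at 1.05, 8.45, 0.908, 3.59 and 1.90 times the intronic density. Their log2 fold changes were -0.40, -1.16, -2.88, -1.82 and -2.04, so a high r did not mean a change of the same size. None of the 5 was called by edgeR's quasi-likelihood test. The other hormone genes were less alike, with r of 0.897 for *Gcg*, 0.869 for *Ins1*, 0.838 for *Ins2*, 0.782 for *Iapp* and 0.736 for *Sst*. With 6 libraries, these values order the genes and carry no test.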

How the data were processed

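Libraries were prepared from lysed islets with low-input RNA chemistry, 1 per mouse, after the islets had been kept in culture medium. The authors deposited 1 table per library with counts of raw reads for each gene, kept apart by exon, intron and exon-exon junction. The deposited RPKM values relate exon reads to the length of the exons and to the mapped reads, and the deposited TPM values are the same levels scaled to a common sum. The aligner and the counter were not given in the sources used here, and the submitters' processing notes name mm10, but gene positions in the tables differ from the GRCm38 annotation, so they served only for distances. The authors' comparison table, with fold changes and p-values, was not used.

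Total exon reads were fitted with edgeR 4.0.16 in R 4.3.3 (quasi-likelihood test, genotype as the only term, TMM scaling, filterByExpr with a minimum of 10 counts), with Benjamini-Hochberg adjustment over all 11674 genes kept. The standard error is the log2 fold change divided by the square root of F. The biological coefficient of variation was 0.321. Normalized counts are exon reads divided by the effective library size, relative to its mean. On simulated counts of this comparison over 10993 genes, 53 of 81 genes changed 4-fold and 2 of 96 changed 2-fold were recovered, with 2 false calls. Single values were compared by 2-sided exact permutation tests, whose smallest p for 3 against 3 is 0.1, and shares have Clopper-Pearson 95% intervals.

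Intronic density is a library's median density of intron reads over 5175 genes whose introns span 50000 bases or more. Genes called well above it are autosomal and protein-coding, with exons at 5 times that density or more and 5 times the density of their own introns, and a mean of 1 exon-exon read or more. These criteria were applied to means over the 6 libraries of both genotypes, so a gene could pass through 1 genotype alone. The 11 repeat-like genes are predicted protein-coding genes at 100 times the intronic density or more. Named genes are the members, up to 4 others per list with the most exon reads, the 5 most alike by correlation, and the nearest tested neighbours on chromosome 11. *Pam*, *Dpp4*, *Npy1r*, *Npy5r*, *Npy6r* and *Gip* were added after their values were seen. The members and the 6 gene lists were chosen with earlier results of these data known.

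Alternatives covered other scalings (DESeq2 size factors, upper quartile, library size, mapped reads, intron reads, ribosomal protein genes, other expressed genes), filters, read types and tests (DESeq2 1.42.0, limma-voom of limma 3.58.1, edgeR's likelihood ratio and exact tests), Y-linked density as a term, and leaving out libraries. Promoters are from RefSeq for GRCm38.p6, where both members matched. Python 3.11.15, pandas 2.3.3, numpy 2.4.6, scipy 1.17.1 and matplotlib 3.10.9 were used.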

Additional observations from a re-analysis of the deposited data

How the results depend on the processing

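The log2 fold changes of *Ppy* and *Pyy* stayed below 0 under every alternative run. Leaving out each library in turn gave -2.56 to -2.11 for *Ppy* and -2.88 to -2.36 for *Pyy*, with 0 to 196 genes called. Values no longer called, for *Ppy* and *Pyy* in that order, were -2.42 and -2.66 with total gene reads, -1.08 and -1.65 with exon-exon reads, -0.75 and -0.99 with expressed genes only, -1.89 and -1.94 with Y-linked density as a term, and -2.07 and -2.22 without Trpm7R/R 6 and 8. For *Ppy* alone they were -0.98 with scaling to ribosomal protein genes and -1.08 with scaling to other expressed genes. Exon-exon reads without the repeat-like genes, scaled by their total, an alternative chosen after seeing the data, gave -0.55 and -1.01 with neither called. Against 3 genes called, all lower, there were 3 (all higher) with expressed genes only, 30 with upper quartile scaling, 23 with library size, 46 with mapped reads, 37 with TMM of intron reads, 7370 with ribosomal protein genes (7362 higher), 6895 with other expressed genes (6883 higher), 141 with all genes of at least 1 count, 33 with a minimum of 20 counts, 0 with total gene reads, exon-exon reads or the Y-linked term, 97 with DESeq2, 162 with the likelihood ratio test, 154 with the exact test, 337 with limma-voom, 8 without Trpm7R/R 6 and 8, 23 (all higher) with the added alternative and 69 at an adjusted p of at most 0.1. In exon-exon reads the difference in log2 ratio was 0.55 for *Ppy* to *Pyy* and -1.57 for *Pyy* to *Gcg*, and *Pyy*'s share of expressed genes differed by -1.41 percentage points. *Sst* had 0 exon-exon reads in Trpm7R/R 6, so ratios to it gave no value there. The cause of these changes was not tested. Controls were littermates, but the sources used here do not give each mouse's litter, so no paired analysis was made. With 3 mice per genotype the permutation tests cannot reach 0.05, and the members had at most 12 intron reads in a library, which limits any comparison of unspliced RNA.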
